A study of Mus musculus with 11 samples.

Results

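Neuropeptide Y (Npy) and 6 genes of cardiac nerves and their supporting cells were followed in injured and uninjured heart pieces of 2 mouse strains. The set of 7 genes was picked by symbol out of 15274 genes measured, and comprised Npy, its receptor gene Npy1r, the neurotrophin receptor gene Ngfr, the myelin gene Mbp, the glial genes Sox10 and S100b, and the growth-cone gene Gap43. They were picked with results of these same data known, so that their differences are given as a description. RNA sequencing covered 11 libraries from 6 mice aged 8 weeks, in 4 groups. These were uninjured (n = 3) and injured (n = 3) heart regions of C57BL/6J mice (B6), and uninjured (n = 3) and injured (n = 2) heart regions of C3H/HeJ mice (C3H), with day 7 in the titles. Libraries of the same number within a strain are regions of 1 heart, so that 5 animals gave both regions and C3H animal 3 gave the uninjured region only. No transgene or drug is named for any group, and the type of injury was not stated in the labels.

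Sympathetic neurons that reach the heart store neuropeptide Y with noradrenaline and release both, and the peptide acts on G protein-coupled receptors such as the Y1 receptor (Npy1r) on vessels and muscle. Schwann cells ensheath these axons: the transcription factor Sox10 sets up and keeps their identity, S100b is a calcium-binding protein they contain, and Mbp is a membrane protein that compacts myelin. After a nerve is cut, Schwann cells are known to turn to a repair state with more Ngfr, the p75 neurotrophin receptor, and regrowing axons carry more Gap43.

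The promoter of Npy is shown because Npy had the largest injury difference among the 7 genes. The RefSeq promoter table of build GRCm38.p6 held 4 of them (Npy, Npy1r, Ngfr and S100b). The 250 bases before the annotated start of Npy lie at chr6:49822460-49822709 on the plus strand, and capitals mark the matches to a GC box (GGGCGG) and to a TATA variant (ATAAAA):
Npy: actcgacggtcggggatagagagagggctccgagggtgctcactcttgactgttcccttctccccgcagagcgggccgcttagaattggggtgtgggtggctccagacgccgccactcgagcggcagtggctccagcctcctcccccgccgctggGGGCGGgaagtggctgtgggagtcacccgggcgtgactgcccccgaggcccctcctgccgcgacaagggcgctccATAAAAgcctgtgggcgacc
The GC box match covers bases 95 to 90 before the start and the TATA variant bases 20 to 15 before it. Both strands were searched. Of 32851 promoters of the same length in the table, 32.7% held a GC box and 17% the TATA variant. The letters TGACTCA (AP-1, in 4.46% of promoters), TGACGTCA (CRE, 1.55%), TATAAA (the canonical TATA box, 12.4%) and CANNTG (E-box, 66.2%) had no match in this window of Npy, and TGACTCA had 1 match in that of Npy1r. A canonical TATA box that ends in one more A would also match the variant. These matches are descriptions of the sequence and not of binding.

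Libraries held 9699985 to 22138459 reads assigned to genes, and values below are normalised counts, that is reads divided by the size factor of the library. Differences are on the scale of log2(normalised count + 1), with the standard error (SE) of a linear model over all 11 libraries, and a gene is said to rise or fall where its limma adjusted p was under 0.05. The libraries of C3H and B6 also differed in sex-linked genes. Xist ran from 1840 to 8478 in C3H and from 3.14 to 12.2 in B6, while the Y-linked gene Ddx3y ran from 0.888 to 3.46 in C3H and from 1429 to 2221 in B6, so strain and sex cannot be told apart.

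Npy was high in both injured C3H libraries and near 0 in the other 9. In uninjured B6 regions it stood at 1.18, 0 and 1.18 in libraries 1 to 3, which is 2 reads in all, and in injured B6 regions at 8.97, 10.2 and 0, or 24 reads. In uninjured C3H regions it stood at 0, 9.42 and 0, or 9 reads, all of them from library 2. In injured C3H regions it reached 477 in library 1 and 777 in library 2, or 1651 reads. The lowest injured C3H value thus lay far above every other library, whereas the other 3 groups overlapped. Npy passed the filter on low values through the injured libraries: the 3 that reached a normalised count of 10 were both injured C3H libraries and injured B6 library 2.

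Between the C3H regions the Npy means were 3.14 ± 5.44 (SD, n = 3) and 627 ± 212 (SD, n = 2), a ratio of 199.6. The log2 difference was 8.13 (SE 1.20). The ratio of depth-scaled reads was 220.5, with an exact 95% interval of 116 to 483 for counting error only. In B6 this ratio was 7.13 (1.77 to 62.2). It rests on 2 reads, and Npy was higher in the injured region of 2 of 3 B6 animals against 2 of 2 C3H animals. Between the injured regions of the strains the read ratio was 98.0 (65.6 to 153, counting error only), and the log2 difference of 6.98 (SE 1.20) was no longer called without injured C3H library 2 (limma adjusted p = 0.128).

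The larger Npy difference in C3H than in B6 did not pass the test of the difference itself. The interaction term was 6.61 (SE 1.61, limma adjusted p = 0.0674). Its size depends on the pseudocount, since uninjured B6 regions held 2 reads. It passed with a pseudocount of 5 (limma adjusted p = 0.00399) and without uninjured C3H library 2 (0.0230). It also passed with the animal as a fixed block (0.0401) or a random block (0.0182). Those were 1 of 11 fits that left out 1 library and 3 of 9 other settings, and it did not pass in the rest.

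**Figure D1:**
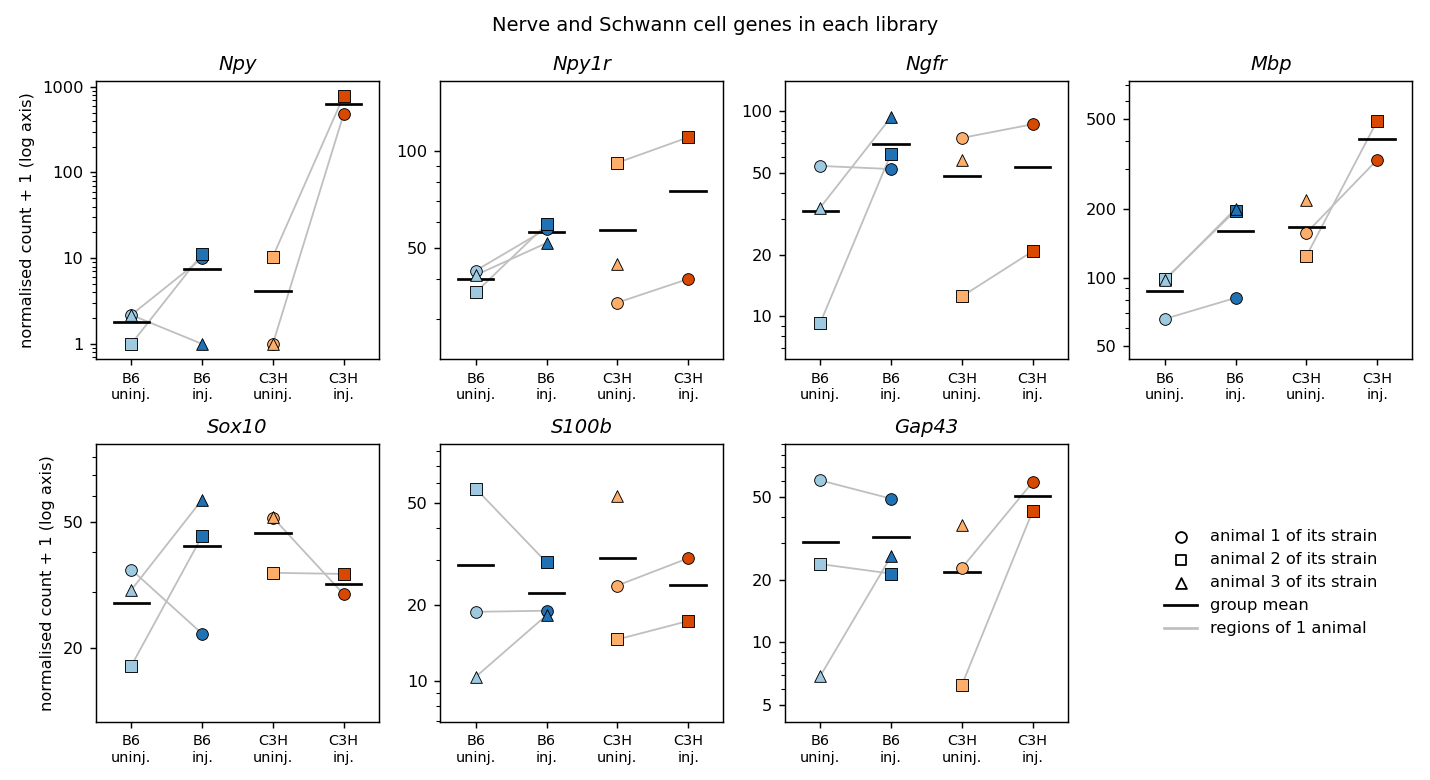
Normalised count + 1 of the 7 genes in each of the 11 libraries (y axes logarithmic), by group on the x axis, where symbols are animals, grey lines join the regions of 1 animal and black bars are group means. Npy stood at 477 and 777 in the injured C3H libraries and at 10.2 or less elsewhere, while Ngfr, S100b and Gap43 vary widely among libraries of 1 group.

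Npy1r, the receptor gene, showed no difference of the size seen for Npy. It stood at 41.4, 35.3 and 40.1 in uninjured B6 regions and at 56.3, 58.1 and 50.7 in injured ones, groups that did not overlap. In C3H it stood at 32.7, 91.1 and 43.5 in uninjured regions and at 38.9 and 109.5 in injured ones, groups that overlapped, with animal 2 high in both of its regions. Npy1r was higher in the injured region of 5 of 5 animals. The difference was 0.49 (SE 0.44) in B6 and 0.36 (SE 0.49) in C3H, and the C3H value became -0.37 without injured C3H library 2 and -0.05 with quantile normalization. The family list held 2 further tested genes: Npy4r, a receptor for the related pancreatic polypeptide, differed by 1.72 (SE 0.92) in B6 and 0.10 (SE 1.03) in C3H, and Dpp4, a peptidase that trims neuropeptide Y, by -0.12 (SE 0.32) and -0.13 (SE 0.36).

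Mbp was higher in the injured region of every one of the 5 animals. It stood at 65.1, 97.5 and 96.6 in uninjured and 80.7, 196 and 200.3 in injured B6 regions, which overlapped. In C3H it stood at 156, 124 and 218 in uninjured and 329 and 487 in injured regions, which did not overlap. Uninjured C3H regions also lay above all uninjured B6 regions, and the group means were, in ascending order, B6 uninjured (86.4), B6 injured (159), C3H uninjured (166) and C3H injured (408), with B6 injured and C3H uninjured within each other's spread. The injury difference was 0.78 (SE 0.37) in B6 and 1.30 (SE 0.42) in C3H, and the strain difference was 0.92 (SE 0.37) in uninjured and 1.44 (SE 0.42) in injured regions. The last of these was not called (limma adjusted p = 0.0603), but passed with the animal as a random block (0.0440), with DESeq2 (0.0161) and with quantile normalization (0.0432). Those were 3 of 9 such settings, and it passed in 0 of 11 fits that left out 1 library. In C3H the call of Mbp was lost without uninjured library 1 (limma adjusted p = 0.0589) or 2 (0.0911), without injured library 1 (0.0616) or 2 (0.236), and with quantile normalization (0.0537). The Mbp locus also encodes the Golli forms, which are made outside myelin, and counts per gene do not separate them from the myelin forms.

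Sox10 and S100b mark Schwann cells whether or not they make myelin. Sox10 stood at 34.3, 16.6 and 29.5 in uninjured and 21.2, 44.0 and 57.6 in injured B6 regions, and at 50.5, 33.5 and 50.6 in uninjured and 28.5 and 33.2 in injured C3H regions. The C3H groups did not overlap, with the injured ones lower, and animal 2 differed little between its regions. Sox10 was higher in the injured region of 2 of 3 B6 animals and 0 of 2 C3H animals. The Sox10 difference was 0.54 (SE 0.43) in B6 and -0.50 (SE 0.49) in C3H. S100b stood at 17.7, 56.0 and 9.43 in uninjured and 17.9, 28.3 and 17.2 in injured B6 regions, and at 22.8, 13.6 and 52.4 in uninjured and 29.4 and 16.3 in injured C3H regions. Its groups overlapped in both strains, with differences of -0.05 (SE 0.64) and -0.21 (SE 0.72). Within animals S100b was higher in the injured region of 4 of 5, both C3H animals included, and the C3H difference was 0.30 with the animal as a fixed block or without uninjured C3H library 3, which has no injured partner. In bulk RNA, fewer cells of a type and less RNA per cell cannot be told apart.

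Ngfr and Gap43, both of the repair response, varied widely among libraries of the same group, as Gap43 did from 5.89 to 59.2 in uninjured B6 regions. Ngfr stood at 53.2, 8.30 and 33.0 in uninjured and 51.4, 61.3 and 92.8 in injured B6 regions, and at 73.3, 11.5 and 56.8 in uninjured and 85.6 and 19.8 in injured C3H regions. Animal 2 of C3H was low in both regions, and the groups overlapped in both strains, with differences of 1.39 (SE 0.79) in B6 and 0.17 (SE 0.88) in C3H. Gap43 stood at 59.2, 22.8 and 5.89 in uninjured and 48.1, 20.4 and 24.9 in injured B6 regions, and at 21.8, 5.23 and 35.5 in uninjured and 57.9 and 41.7 in injured C3H regions. The C3H groups of Gap43 did not overlap and the B6 groups did. Its difference was 0.49 (SE 0.78) in B6 and 1.53 (SE 0.88) in C3H, and the latter passed with the animal as a fixed block (limma adjusted p = 0.0270).

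Over the 7 genes, limma called 0 in B6, where 0.0136% of 14751 tested genes were called. In C3H it called 2, both higher, where 15.3% of all genes were called higher. Groups did not overlap for 1 of the 7 in B6, higher (all genes 9.83% higher and 7.69% lower), and in C3H for 3 that were higher (29.6%) and 1 that was lower (29.7%). The median difference was 0.54 in B6 and 0.36 in C3H, beside 0.01 over all genes in both. Between strains, 0 of the 7 were called in uninjured regions (all genes 3.10%) and 1, Npy, in injured regions (7.06%), and 0 passed for the interaction (1.57%). Groups of the strains did not overlap for 1 of the 7 in uninjured regions, Mbp, higher in C3H (all genes 7.63% higher and 9.27% lower), and for 2 in injured regions, Npy and Mbp, both higher (24.9% and 24.2%). Since the genes were picked with these contrasts known, nothing is read from those counts.

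**Figure D2:**
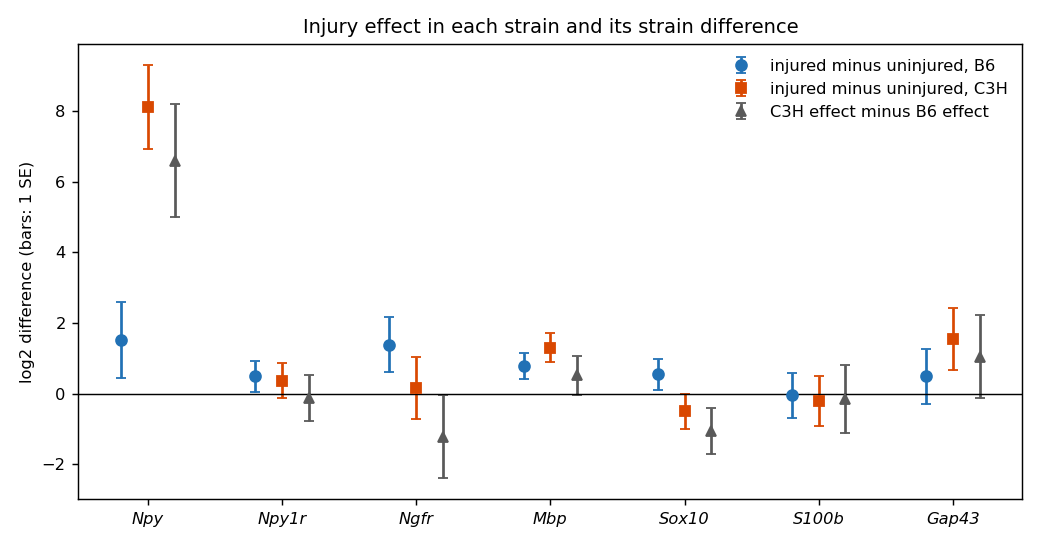
Fitted log2 differences of the 7 genes (y axis, with bars of 1 SE) for injury in B6 (circles), injury in C3H (squares) and their difference (triangles). Npy in C3H stands at 8.13, Mbp is positive in both strains, and the B6 value of Npy rests on 2 reads in the uninjured regions.

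The other genes of nerve and Schwann cell were followed in 12 lists with 150 tested genes, which include the 7 above. Within C3H, 43 of them changed with injury, 31 higher and 12 lower. That is 28.7%, against 30.7% of all genes tested (15.3% higher and 15.4% lower). The count of 43 was smaller without either injured C3H library, which leaves a single library in that group. The share of all genes called in those fits is not given here. Within B6, 0 changed with limma, edgeR or DESeq2, where limma called 2 of all 14751 genes tested (0.0136%). An unadjusted limma p under 0.05 was seen for 22 of the 150, beside 1979 of the 14751. The median difference over the lists was 0.37 in C3H and 0.36 in B6, beside 0.01 over all genes in each. With quantile normalization the median of all genes in C3H moved from 0.01 to -0.11.

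Among 13 myelin genes, 6 rose in injured C3H regions and 0 fell, or 46.2% called against 30.7% of all genes (15.3% higher). Nfasc, whose protein anchors the node of Ranvier and the glial loops beside it, rose by 4.83 (SE 0.66, limma adjusted p = 0.000400). Its values went from 14.9, 26.2 and 5.32 to 349 and 450.1, without overlap. Egr2, the transcription factor that starts myelination and is also induced in immune cells, rose by 4.07 (SE 0.60, adjusted p = 0.000661), from 37.6, 6.28 and 22.2 to 292 and 336. Mag, a glycoprotein of the myelin sheath next to the axon, rose by 3.53 (SE 0.73, adjusted p = 0.00403), a call lost without injured C3H library 2 (0.0584). The others that rose were Drp2, Mbp and Pmp22, by 2.35, 1.30 and 0.73. Drp2 lost its call without uninjured C3H library 3 (0.0772), injured C3H library 1 (0.169) or injured C3H library 2 (0.108), with the animal as a fixed block (0.0548), with quantile normalization (0.0558) and with only the groups compared (0.0817). Pmp22 lost it without injured B6 library 2 (0.0599), uninjured C3H library 1 (0.103) or 2 (0.0839), or injured C3H library 1 (0.0513) or 2 (0.302), and with only the groups compared (0.0831). The count of 6 was smaller without either injured C3H library, which leaves a single library in that group. The share of all genes called in those fits is not given here. Drp2 and Pmp22 were picked from the list to show their role after their values were seen.

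The Schwann cell identity list moved both ways, with 3 of 24 genes higher and 5 lower in injured C3H regions. That is 33.3% called, near the 30.7% of all genes, which also moved both ways (15.3% higher and 15.4% lower). Ncam1, an adhesion molecule of non-myelinating and repair Schwann cells, rose by 2.59 (SE 0.37, limma adjusted p = 0.000543), from 196, 120.4 and 120.8 to 899 and 818. Cadm4, which holds the Schwann cell to the axon, fell by 1.84 (SE 0.34, adjusted p = 0.00224), from 1210, 608 and 1093 to 348 and 194. L1cam, another adhesion molecule, rose by 2.12 (SE 0.48, adjusted p = 0.00620, and 0.0575 without injured C3H library 2). Foxd3, a neural crest factor, fell by 2.22, from 31.7, 23.0 and 64.8 to 6.92 and 7.07, and is named after its values were seen. Its call was lost without uninjured C3H library 3 (adjusted p = 0.0601), injured C3H library 1 (0.0727) or injured C3H library 2 (0.0869). In this list 2 genes rose and 2 fell without injured C3H library 1, and 1 rose and 2 fell without injured C3H library 2. The list's median of 0.03 turned negative with quantile normalization (-0.32), edgeR (-0.05) and DESeq2 (-0.05).

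Of 8 genes of the repair list, 2 rose and 0 fell in C3H. These were Ncam1 and Runx2, a transcription factor that is also the master regulator of bone, which rose by 2.63 (SE 0.29, limma adjusted p = 0.000114), from 53.5, 37.7 and 37.3 to 254 and 280.5. Of 11 neuregulin and ErbB genes, 2 rose and 0 fell, or 18.2% called against the same 30.7% of all genes. Adgrg6, an adhesion receptor needed for myelination, rose by 2.23 (SE 0.44, adjusted p = 0.00330), and Adam17, a protease that cleaves neuregulin and tumour necrosis factor, by 1.04 (SE 0.24, adjusted p = 0.00774). Both calls were lost without injured C3H library 2 (0.0657 and 0.0783).

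The sympathetic and secretory granule list had 1 of 10 genes higher and 2 lower in C3H, or 30.0% called against 30.7% of all genes. The enzymes of noradrenaline synthesis that were tested did not move with Npy. Dbh, dopamine beta-hydroxylase, which makes noradrenaline in the same vesicles, stood at 136, 47.1 and 159.8 in uninjured and 39.8 and 7.07 in injured C3H regions. It fell by 2.49 (SE 0.77, limma adjusted p = 0.0289). This call was lost without uninjured C3H library 1 (0.0642), uninjured library 3 (0.0951) or injured library 2 (0.322, difference -1.32), and with only the groups compared (0.0604). In B6 Dbh was 81.6, 78.8 and 35.4 in uninjured and 31.0, 18.1 and 7.74 in injured regions, a difference of -1.83 (SE 0.69, adjusted p = 0.364). The 2 strains thus gave the same sign for Dbh, without overlap between regions in either.

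Ddc, the decarboxylase of the same pathway, fell by 1.53 in C3H (SE 0.43, limma adjusted p = 0.0178, and 0.198 without injured C3H library 2). Maoa, which breaks down noradrenaline, rose by 0.94 (SE 0.29, adjusted p = 0.0284), and lost its call without any of 4 C3H libraries, uninjured 1 (0.0625) and 2 (0.0524) and injured 1 (0.0962) and 2 (0.163), and with quantile normalization (0.0821). Phox2a, a factor of noradrenergic identity, stood at 8.91, 11.5 and 26.6 in uninjured and 6.92 and 6.36 in injured C3H regions, without overlap (difference -0.98, SE 0.60, adjusted p = 0.233). Stmn2, an axon protein of neurons, was 120.4 to 272 in uninjured and 64.3 to 140.1 in injured C3H regions. Both are named after their values were seen, and other genes of their lists went the other way. Called or not, 6 tested genes of the sympathetic list were higher and 4 lower in injured C3H regions. In the axon and neuron list 14 were higher and 8 lower. Th, Slc6a2, Chat, Slc18a3 and Elavl4, markers of sympathetic and cholinergic neurons, were not analysed here. Of 10 adrenoceptor genes, 2 fell and 0 rose in C3H, or 20.0% called against 30.7% of all genes (15.4% lower). Adra1b fell by 1.80 (SE 0.34, limma adjusted p = 0.00270) and Adrb1, the main beta receptor of heart muscle, by 1.79 (SE 0.40, adjusted p = 0.00634). Without injured C3H library 2 both calls were lost (0.0508 and 0.103), and the Adrb1 difference was -1.07.

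Of 22 axon and neuron genes, 5 rose and 1 fell in C3H, or 27.3% called against 30.7% of all genes (15.3% higher and 15.4% lower). Basp1, a growth-cone protein related to Gap43, rose by 3.22 (SE 0.35, limma adjusted p = 9.99e-05), from 126.7, 66.0 and 118 to 941 and 931. Mapt, the microtubule protein tau, fell by 1.43 (SE 0.36, adjusted p = 0.0104, and 0.140 without injured C3H library 2). In the sensory neuropeptide list 1 of 6 genes changed, or 16.7% against 30.7% of all genes. Piezo2, a mechanically gated channel, rose by 2.87 (SE 0.64, limma adjusted p = 0.00611). Its call was lost without injured C3H library 1, which leaves a single library in that group. Without injured C3H library 1, 2 of the axon and neuron genes rose and 1 fell, and without injured C3H library 2, 3 rose and 0 fell. The cholinergic list had 0 of 5 called in limma, with 1 at an unadjusted p under 0.05, and its lowest adjusted p was 0.0773, for Bche, a cholinesterase (difference -0.77, SE 0.31). Bche passed with the animal as a random block (0.0334) and without injured C3H library 1 (0.0496).

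Trophic and guidance genes were called in shares close to that of all genes. Of 22 neurotrophic genes, 4 rose and 2 fell in C3H, or 27.3% called against 30.7% of all genes. Gfra1, the receptor subunit for the glial factor GDNF, rose by 1.46 (SE 0.26, limma adjusted p = 0.00171), from 259, 223 and 329 to 880.3 and 616. The ligand genes Nrtn and Ntf3 fell by 2.10 (SE 0.48, adjusted p = 0.00714) and 1.26 (SE 0.37, adjusted p = 0.0217). Nrtn lost its call without injured C3H library 2 (0.0899), and Ntf3 without uninjured C3H library 3 (0.0785) or injured library 1 (0.0593) or 2 (0.153), with the animal as a fixed block (0.0633) and with only the groups compared (0.0614). Of 25 axon guidance genes, 7 rose and 0 fell, or 28.0% called against 30.7% of all genes (15.3% higher and 15.4% lower). Those that rose were led by the ligand gene Slit2 (2.35, SE 0.33, adjusted p = 0.000473), its receptor gene Robo1 (2.54, SE 0.44, adjusted p = 0.00162) and the netrin receptor gene Unc5c (4.17, SE 0.72, adjusted p = 0.00155). Without injured C3H library 1, 4 guidance genes were called, and 4 without injured C3H library 2, while the neurotrophic list had 1 gene higher and 1 lower without the first and 1 higher without the second. The calls of Slit2, Robo1, Unc5c, Gfra1, Nfasc, Egr2, Ncam1, Cadm4, Runx2, Basp1 and Npy held under each alternative run for injury in C3H.

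**Figure D3:**
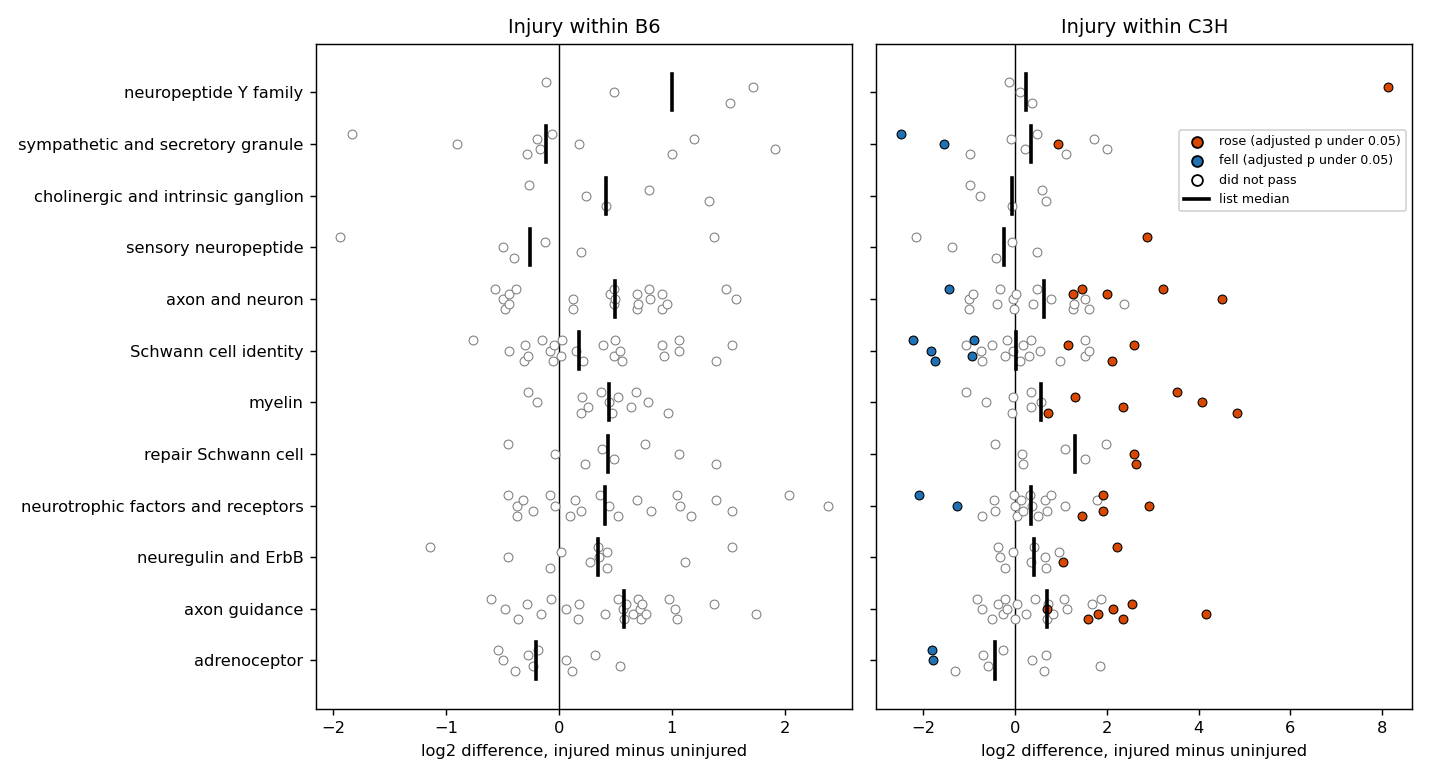
Log2 difference between injured and uninjured regions (x axis) of the tested genes of the 12 lists (y axis), for B6 (left) and C3H (right), with filled points for genes that passed the test and black bars for list medians. None passed in B6, where limma called 2 of 14751 genes. In C3H the 6 called myelin genes and 7 called axon guidance genes are all higher. The called Schwann cell identity genes are split, 3 higher and 5 lower, beside 15.3% higher and 15.4% lower over all genes.

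In B6 the list genes with the smallest p had a limma adjusted p of 0.364. Among these, Gfra1 differed by 0.81 (SE 0.23), Ncam1 by 1.06 (SE 0.33), Unc5c by 1.75 (SE 0.64), and Nrcam, an adhesion molecule of axons, by 1.56 (SE 0.49). Tac1, which encodes substance P of sensory fibres, differed by -1.93 (SE 0.79, adjusted p = 0.365), and the myelin enzyme gene Cnp by 0.64 (SE 0.22, adjusted p = 0.364). None of them passed.

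The injury effect differed between the strains for 4 of the 150 genes, or 2.67%, against 1.57% of all genes. All 4 effects were larger in C3H, as for 1.50% of all genes, with 0.0678% smaller. Those described here are 3 of them: the difference of the effects was 2.42 for Basp1 (SE 0.46, limma adjusted p = 0.0246), 4.46 for Nfasc (SE 0.88, 0.0278) and 1.87 for Runx2 (SE 0.39, 0.0337). In B6 these genes had injury differences of 0.80 (SE 0.31), 0.37 (SE 0.59) and 0.76 (SE 0.26). The count was 10 with the animal as a fixed block and 13 as a random block. It was 0 without uninjured B6 library 1 or injured C3H library 2, 1 without injured B6 library 1, injured B6 library 3 or injured C3H library 1, and 2 without injured B6 library 2 or uninjured C3H library 3.

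In uninjured regions 10 of the 150 genes differed between strains, 4 higher and 6 lower in C3H (6 and 5 with DESeq2), or 6.67% against 3.10% of all genes (1.32% higher and 1.79% lower). Ntn1, the guidance ligand netrin 1, was higher in C3H by 2.14 (SE 0.27, limma adjusted p = 0.00102), with 6051, 5605 and 3345 against 1003, 919 and 1448 in B6. Grk5, a kinase that desensitises adrenoceptors, was higher by 1.23 (SE 0.20, adjusted p = 0.00623). Mal, a membrane protein of myelinating cells, was lower by 1.66 on the log2 scale (difference -1.66, SE 0.23, adjusted p = 0.00195), and Nrg2, a neuregulin gene, by a difference of -4.19 (SE 0.63, adjusted p = 0.00347). Those 4 calls held under each alternative run for this comparison. The calls of Uchl1 (-1.33), Tubb3 (-4.49) and Basp1 (-1.44), all of axons, and of Cadm4 (1.42) were lost without uninjured B6 library 1 or 2 (adjusted p from 0.0685 to 0.125) and without 2 of the uninjured C3H libraries each (0.0549 to 0.103). The count of 10 was 5 without uninjured B6 library 1, and 4 without uninjured B6 library 2 or uninjured C3H library 3. Chga, of secretory granules, had 0 reads in uninjured C3H regions against 14 in B6, at least 6.63-fold lower against 3 reads over the group, for counting error only. Reads were aligned to mm9, which is a B6 genome, and C3H reads over variants can be undercounted; its part in these differences was not tested.

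In injured regions 14 of the 150 differed between strains, 9 higher and 5 lower in C3H, or 9.33% against 7.06% of all genes (3.72% higher and 3.34% lower). Mal was again lower (difference -2.17, SE 0.25, limma adjusted p = 0.000555), and this call held under each alternative run. Nfasc was higher by 4.16 (SE 0.66, adjusted p = 0.00374, and 0.0845 without injured C3H library 2). The count fell to 1 without injured C3H library 2, and was between 4 and 9 without any one of uninjured B6 library 1, the injured B6 libraries or injured C3H library 1.

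Markers of other cells moved with injury in the same C3H libraries in which Npy, Mbp and the list genes rose. Their part in those results was not tested. Over all genes tested, 15.3% rose and 15.4% fell with injury in C3H. Of 10 macrophage markers 9 rose in C3H, and their summed level went from 14316 to 24223 in uninjured to 76112 to 132111 in injured regions. In B6 the sums were 24275 to 36329 and 38797 to 55246, with 0 called. Without injured C3H library 2, 6 of the macrophage markers rose, and 3 cardiomyocyte markers fell. Over all C3H libraries, of 10 cardiomyocyte markers 8 fell in C3H, from sums of 1583291 to 1890309 to sums of 540135 to 574343. Of 10 fibroblast markers 5 rose and 1 fell (66342 to 153300 against 249689 to 334568), and of 8 chondrocyte markers 5 rose and 1 fell (314 to 661 against 3890 to 5919).

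Of 7 T cell markers 1 rose, the receptor gene Il7r, and the sums went from 155 to 242 to 1155 to 2008. Il7r gave most of that rise, with a mean of 19.8 in uninjured and 1392 in injured C3H regions. Of 10 mural markers 2 rose and 2 fell. Of 10 endothelial markers 3 fell, and 1 fell among 6 atrial, 3 adipocyte, 4 melanocyte and 2 oligodendrocyte and astrocyte markers each. Of 7 megakaryocyte and 8 epicardial markers 0 were called. Without injured C3H library 1 the calls were 2 higher for fibroblast and 1 lower each for mural and endothelial markers, and without injured C3H library 2 they were 3 higher for fibroblast, 1 higher and 1 lower for mural and 0 for endothelial markers. The adipocyte and the oligodendrocyte and astrocyte call were lost without either. The atrial sums, 11842 to 71651 in uninjured and 53088 to 53743 in injured C3H regions against 4511 to 28494 in B6, differed among pieces of 1 group, and their part was not tested. Nppa gave most of these sums, with means of 32205 in uninjured and 52322 in injured C3H regions, and 4768 and 18915 in B6. Of the 6 tested atrial markers, 2 were higher and 4 lower in injured C3H regions, called or not. The summed Schwann cell identity list was 10126 to 18455 in uninjured and 7235 to 9231 in injured C3H regions, of which 1 gene, Art3, gave 4312 to 14104 and 1368 to 3075. Without Art3 the other 23 genes summed to 4351 to 5813 in uninjured and 5867 to 6156 in injured C3H regions, so that the order turned round. The summed sympathetic list was 756 to 1059 in uninjured and 891 to 995 in injured C3H regions. Cyb561 and Maoa gave most of it, and without them the other 9 genes summed to 230.3 to 374 and 119 to 191. Both calculations were added after the data were seen. Among those 9 genes, Dbh and Ddc gave most of the uninjured C3H sums. Their means were 114 and 138 in uninjured and 23.4 and 49.1 in injured C3H regions. Slc18a2 (30.9 and 42.1) and Slc18a1 (4.29 and 15.2) had higher means in injured C3H regions. Called or not, 6 tested genes of the whole list were higher and 4 lower.

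**Figure D4:**
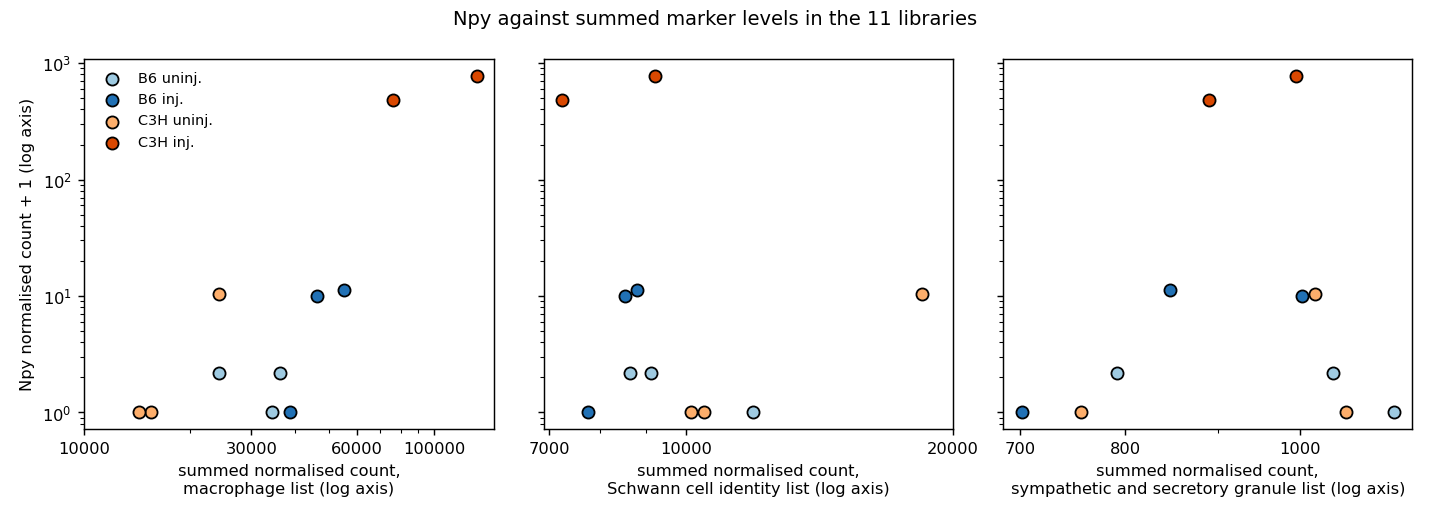
Npy (normalised count + 1, log y axis) against the summed normalised counts (log x axes) of the macrophage, Schwann cell identity and sympathetic lists in the 11 libraries, coloured by group. The injured C3H libraries, with Npy at 477 and 777, have the highest macrophage sums (76112 and 132111). Art3 gave 1368 to 14104 of the Schwann cell sums in C3H, and Cyb561 and Maoa gave most of the sympathetic sums. Without Art3 the injured C3H libraries lie above the uninjured C3H ones (5867 to 6156 against 4351 to 5813). Without Cyb561 and Maoa they lie below them (119 to 191 against 230.3 to 374), where Dbh and Ddc gave most of the uninjured sums.

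The genes whose pattern over the 11 libraries was most like that of Npy were Anxa4, Atf3, Acp5, Vipas39 and Nfasc, by Pearson's r of log2(normalised count + 1) among 11537 genes. For Anxa4, an annexin, r was 0.970 (Spearman's rho 0.842). For Atf3, a stress-induced transcription factor that is known to rise in injured neurons and in macrophages, r was 0.962 (rho 0.833), and it went from 90.1 to 168 in uninjured to 1313 and 1570 in injured C3H regions. For Acp5, the tartrate-resistant phosphatase of osteoclasts and macrophages, r was 0.952 (rho 0.898), with 1862 and 7437 in the injured C3H libraries. Without these 2 libraries, r over the other 9 was 0.839 for Anxa4, 0.756 for Atf3, 0.785 for Acp5, 0.888 for Vipas39 and 0.652 for Nfasc. This calculation was added after the data were seen. In those 9 libraries Npy was at most 10.2, with 2 reads in uninjured B6, 24 in injured B6 and 9 in uninjured C3H regions. The genes were also picked for a high r over libraries that include those 9, so these values are not independent of the choice.

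For the other 6 genes the closest pattern was that of Slc43a3 for Npy1r (r 0.939, rho 0.882), Wdr6 for Ngfr (0.965, 0.900), Mcmbp for Mbp (0.922, 0.909), Hdac7 for Sox10 (0.920, 0.755), Nkain4 for S100b (0.852, 0.791) and Ptms for Gap43 (0.966, 0.873). All points share libraries, depth and animals, and these values are given as a description.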

How the data were processed

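Total RNA of 11 heart pieces was sequenced. Per the submitters' processing notes, alignment used TopHat2 2.0.11 and build mm9, counting HTSeq 0.6.1 and normalization DESeq. The sources used here name neither the annotation nor the strandedness. As deposited, the signal is the read count of each gene divided by a size factor: 100% of values were whole multiples of 1 step per library (tolerance 1e-06). This gave back the authors' counts of 9699985 to 22138459 reads per library, for the count tests. No coordinates are given beyond the promoter, whose table is of another build.

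The 7 genes and all lists were chosen with earlier results of these data known. Of 321 symbols in 12 nerve and 13 marker lists, 260 were in the table (2 by synonym), and the other 61 were not analysed here. The 14751 genes that reached 10 in 2 or more libraries (523 did not) were fitted as log2(value + 1), which understates changes of low genes, with limma 3.58.1 in R 4.3.3: 4 group means, empirical Bayes with trend, 7 residual degrees of freedom, Benjamini-Hochberg adjustment over all tested genes, two-sided, threshold 0.05. Samples of 1 number within a strain come from 1 mouse, as the labels name it. Residuals of its regions correlated at 0.276, -0.0140 and 0.524 in B6 and 0.305 and 0.575 in C3H, and the fit with animal as a block was an alternative, as were edgeR 4.0.16 and DESeq2 1.42.0 on the recovered counts, other pseudocounts and filters, quantile normalization, only the groups compared, and leaving out each library. List genes were named by rule: per list and comparison the 3 with the smallest p among those called, or else the 1 with the smallest p, except that some are not reported here; likeness took the 5 highest Pearson r among genes with a mean of at least 50. Ratios of reads have exact 95% intervals, which cover counting error only. The model was tested on simulated data.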

Additional observations from a re-analysis of the deposited data

Results flagged for a closer look

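The injury effect was larger in C3H than in B6, by the interaction term of the model, for Nfasc, Basp1 and Runx2 of the nerve lists. The difference of the log2 effects was 4.46 for Nfasc, with injury effects of 0.37 in B6 and 4.83 in C3H. It was 2.42 for Basp1 (0.80 and 3.22) and 1.87 for Runx2 (0.76 and 2.63). Leaving out 1 library at a time lost the call in 7 of 11 fits for Nfasc (adjusted p from 0.0175 to 0.217), 6 of 11 for Basp1 (0.00645 to 0.164) and 9 of 11 for Runx2 (0.0268 to 0.255). The mean of uninjured C3H regions was below that of uninjured B6 regions for Basp1 (103.6 and 284) and Runx2 (42.8 and 75.8). The libraries of the strains differ in sex-linked genes, and strain and sex cannot be told apart.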

How the results depend on the processing

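With 2 injured C3H libraries and 3 in each other group, single libraries moved the counts of called nerve list genes. Leaving out each library gave 0 genes for injury in B6 (as in the full fit), 16 to 45 for injury in C3H (43 in the full fit), 0 to 6 for the difference between strains (4), 4 to 14 between strains in uninjured regions (10) and 1 to 19 in injured regions (14). With the replicate block, the animal, the count for the difference between strains was 10 as a fixed effect and 13 as a random effect; among the other comparisons the block moved no count by over 1.5 times. DESeq2 gave 8 for that difference and 25 between strains in injured regions. With only the groups compared, 4 were called in uninjured and 26 in injured regions. Of 714 alternative values of the 7 genes, 705 lay within 1 SD of replicates, 9 moved further and 33 changed sign, all 33 for values that were not called. Depth limits Npy in B6 and in uninjured C3H regions, where 2, 24 and 9 reads were counted. Why these values moved was not tested.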
